A study of Mus musculus with 4 samples.

Results

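The genes described here are the replication-dependent core histone genes of the mouse, read out by RNA-seq of tibial bone marrow. They were chosen by name alone: every gene whose symbol began with Hist1h, Hist2h, Hist3h, Hist4h, H2ac, H2bc, H3c or H4c was taken, and pseudogenes were dropped. This gave 60 of the 55401 genes in the tables, which were 19 H2A, 17 H2B, 12 H3 and 12 H4 genes. The linker histone genes carry other symbols in these tables (H1f1 to H1f5), so the rule took none of them, and they are described separately below. The study compared marrow of 2 groups with 2 libraries each. Both groups were wild-type male C57/B6 mice that received a high-fat diet (HFD) from the age of 8 weeks to make them obese. Both groups stayed on the diet after this lead-in. The Ob group had no other treatment, while the Ob + Exe group also ran on a treadmill at moderate intensity for 12 weeks. The libraries were numbered as replicates without naming the animals, so the p values measure the spread between these libraries. Levels are given as scaled FPKM, which is fragments scaled to the length of the transcript and the depth of the library, summed over the transcripts of a gene and divided by a library factor between 0.949 and 1.03.

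The core histones H2A, H2B, H3 and H4 form the protein spool around which DNA is wound. Cells that copy their DNA need new histones at the same time, and the replication-dependent genes supply them during S phase, so the transcripts are abundant in dividing tissue such as marrow, where red and white blood cells are made. These genes lie in clusters, mostly without introns, and many copies encode the same or nearly the same protein. Their mRNAs are unusual because they end in a short stem-loop in place of a poly-A tail. The stem-loop is bound by SLBP, the stem-loop binding protein that guides processing, translation and decay of the transcript, and transcription is driven by NPAT at the gene clusters. A few of the genes are also known to make polyadenylated transcripts, mainly in cells that have stopped dividing, and H2bc4 (older name Hist1h2bc) and H2bc21 (Hist2h2be) are examples. The libraries of this study were enriched for poly-A tailed RNA with oligo-dT beads, so the levels below are those of histone RNA that passed this selection. The share of each gene's RNA that was captured was not measured.

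The stem-loop is shown first, because it separates the members by annotated transcript end. The search was for the histone stem-loop, a stem of 6 base pairs closed by a loop of 4 bases, on the strand of the transcript. It was found in the annotated transcript of 38 members, in 22 of them within the last 100 bases. Among all 141767 annotated transcripts, 0.0205% held it within the last 100 bases. The lines below give the forms found in 2 or more members, 5′ to 3′, with the paired stem bases in capitals and the loop in lower case:

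20 H2A, H2B and H3 genes: GGCUCUuuucAGAGCC

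H2bc3, H2bc12, H3c3, H3c6 and H3c7: GGCUCUuuuaAGAGCC

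H4c3, H4c4, H4c6, H4c8, Hist1h4m and Hist1h4n: GGCCCUuuucAGGGCC

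H4c9 and H4c14: GGCCCUuuuuAGGGCC

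H4c2 and H4c11: GGUCCUuuucAGGACC

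The first form was present in 9 H2A, 6 H2B and 5 H3 genes and in 0 H4 genes. The third form was present in H4 genes only, 6 of 12. Another 16 members held the stem-loop farther than 100 bases from the annotated end, as H4c9 did with 330 bases after it. The other 22 members had no match in the annotated transcript, whose median length was 396 bases beside 483.5 for the members that end at the stem-loop. The search among members covered only the most abundant annotated transcript of each gene. A transcript annotated short of its true end could hold no match, so these 22 are not shown to lack the stem-loop. A poly-A signal (AATAAA within the last 50 bases) was found in 8 members, which were H4c1, H4c11, H2bc21, H2ac8, Hist1h2br, Hist1h2bp, H4c14 and H3c14. Over all annotated transcripts 26.6% had it.

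Shared sequence bears on every value that follows. The reads were 150 bases long, and many histone genes share longer stretches than that. Of the 60 members, 52 held at least 1 stretch of 150 bases that is also present, on either strand, in the transcript of another annotated gene, and in 25 members at least 50% of all such windows were shared. The line below shows 1 such window, found in 11 H2A genes, as it lies in the coding exon of H2ac13 at chr13:21716576-21716725 (GRCm38, plus strand):

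H2A, 11 genes: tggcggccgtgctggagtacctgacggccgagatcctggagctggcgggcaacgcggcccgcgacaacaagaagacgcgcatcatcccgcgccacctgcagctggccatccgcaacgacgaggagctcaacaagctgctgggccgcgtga

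A read of this window matches H2ac4, H2ac6, H2ac7, H2ac8, H2ac11, H2ac12, H2ac13, H2ac14, Hist1h2an, Hist1h2ao and Hist1h2ap equally. Levels of single copies therefore depend on how such reads were divided between them, which the sources used here do not state. Reads summed over copies that share sequence are free of the division among the copies themselves. Summed FPKM are not wholly free of it, because FPKM is scaled to length and the copies differ in annotated length.

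Depth was similar between libraries. The deposited coverage corresponded to 8702 to 9952 megabases aligned. A read equivalent below is 150 aligned bases. Libraries of the Ob + Exe group were shallower than both Ob libraries, and Ob + Exe 1 listed the fewest genes above 0, 17752 against 19291 to 23309 in the others. The labels name bone marrow as tissue but also mesenchymal stem cells and fibroblasts. The 4 general leukocyte genes summed to 953 to 1224 scaled FPKM per library, the erythroid genes to 54861 to 82199 and 12 mesenchymal and fibroblast genes to 117 to 175, so the libraries are described as whole marrow.

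The members took a small and variable share of the RNA. They held 0.0444% of all FPKM in Ob 1, 0.0766% in Ob 2, 0.0674% in Ob + Exe 1 and 0.0411% in Ob + Exe 2, from 8898 to 15923 read equivalents. The sum over all 60 genes was 204 scaled FPKM in Ob 1, 334 in Ob 2, 292 in Ob + Exe 1 and 204 in Ob + Exe 2. Each group thus held a high and a low library, and the groups overlapped. The means were 269 ± 91.9 for Ob and 248 ± 62.2 for Ob + Exe (SD, n = 2), a log2 ratio of -0.12 against a replicate SD of 0.44 on the log2 scale. The difference was smaller than the spread between replicates. The direction also depended on single libraries, since the log2 ratio was -0.43 without Ob 1, 0.28 without Ob 2, -0.40 without Ob + Exe 1 and 0.12 without Ob + Exe 2.

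The groups overlapped in each of the 4 classes. H2B was the largest class by level, with 90.9 and 149 scaled FPKM in Ob against 118 and 89.6 in Ob + Exe. It made up 40.3% to 44.7% of the members' sum in every library. H4 gave 52.1 and 81.3 in Ob against 89.7 and 45.3 in Ob + Exe. H3 gave 37.2 and 56.2 against 54.5 and 34.7. In these 3 classes Ob 2 and Ob + Exe 1 were the high libraries and the other two were low. H2A was the smallest class, with 23.6 and 46.9 in Ob against 29.9 and 34.4 in Ob + Exe, so that here both Ob + Exe libraries lay between the Ob libraries. The log2 ratios of the group means were -0.13 for H2A, -0.21 for H2B, -0.07 for H3 and 0.02 for H4, beside replicate SDs of 0.51, 0.41, 0.44 and 0.59. Without Ob 2 they were 0.45, 0.19, 0.26 and 0.37, and without Ob 1 they were -0.55, -0.53, -0.33 and -0.27. The ratio for H4 was -0.56 without Ob + Exe 1 and 0.43 without Ob + Exe 2, that for H3 -0.43 and 0.22, that for H2B -0.42 and -0.03 and that for H2A -0.04 and -0.24. With 2 libraries a group, the smallest two-sided p an exact permutation test can give is 0.333, and no test was run on these sums.

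**Figure D1:**
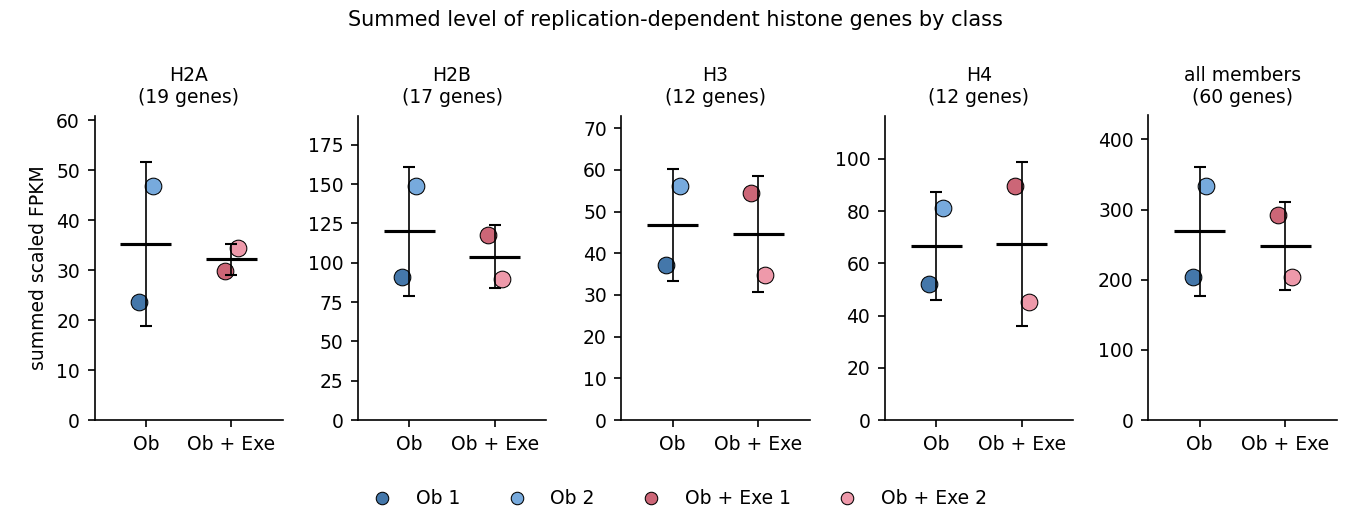
Summed scaled FPKM of the members of each class, and of all 60 members, per library. Points are libraries, horizontal bars group means and vertical bars SDs (n = 2), each y axis starting at 0. The groups overlap in every panel, and Ob 2 with 334 and Ob + Exe 1 with 292 are the 2 high libraries in the panel of all members.

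For single genes, 53 members reached a mean of 0.1 FPKM and were tested with limma among 18596 genes. Of the 7 others, 4 were listed at 0 in all libraries (H2ac1, H2ac19, Hist1h2al and H2bc1), and H2ac18, H3c13 and H4c1 lay below the minimum. A gene was called when its unadjusted p was under 0.05 and its log2 fold change beyond 1. By this rule 4 of the 53 members were called lower in Ob + Exe and 0 were called higher, while 2.73% of all genes tested were called lower and 0.979% higher. The members called lower numbered 2 without Ob 1, 2 without Ob 2, 8 without Ob + Exe 1 and 10 without Ob + Exe 2, and in the last case 4 were called higher. No member passed after Benjamini-Hochberg adjustment over all genes by limma, where the smallest adjusted p of a member was 0.943, 5 members had an unadjusted p under 0.05, and a fit with voom weights called 1 member, H2ac10, lower. No gene of the whole table had an adjusted p under 0.05 either, and 933 had an unadjusted p under 0.05. In 11 members every Ob + Exe value was below every Ob value, which held for 18.7% of all genes, and in 1 member every value was above, which held for 14% of all genes. The groups overlapped in the other 41. The fitted log2 fold change was below 0 in 33 members and above 0 in 20, with a median of -0.35 beside -0.02 over all genes, and without Ob 2 the members' median was 0.02.

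The spread between replicates was wide for these genes. The 37 members with a mean of 1 to 10 scaled FPKM had a median replicate SD of 0.855 on the log2 scale, while the 6586 genes tested in that range had 0.344, and 30 of the 37 lay above that value. The histone genes are short and gather fewer reads at the same FPKM, so the same was done by reads. The 40 members with 30 to 300 read equivalents per library on average had a median replicate SD of 0.861, the 4564 genes of that range 0.553, and 28 of the 40 lay above it. A total of 26 members were highest in Ob 2 and 18 in Ob + Exe 1, whereas 24% and 29.3% of all genes were highest in these libraries. Another 2 members were highest in Ob 1 and 7 in Ob + Exe 2, beside 18.7% and 28.1% of all genes.

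**Figure D2:**
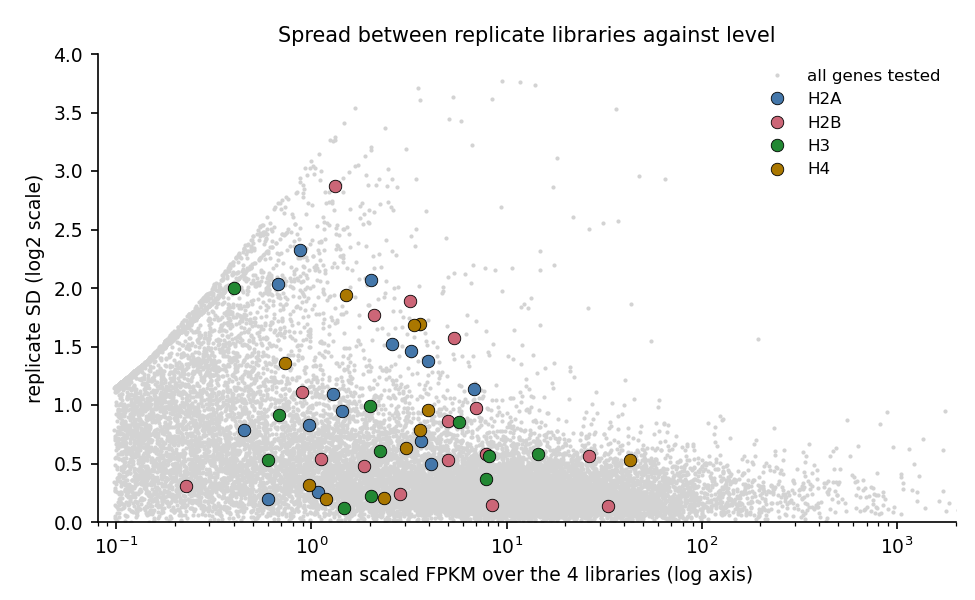
Replicate SD on the log2 scale (y) against the mean scaled FPKM over the 4 libraries (x, log axis) for all 18596 genes tested in grey and the 53 members tested in colour by class. Between 1 and 10 scaled FPKM the members have a median replicate SD of 0.855, and all genes 0.344.

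**Figure D3:**
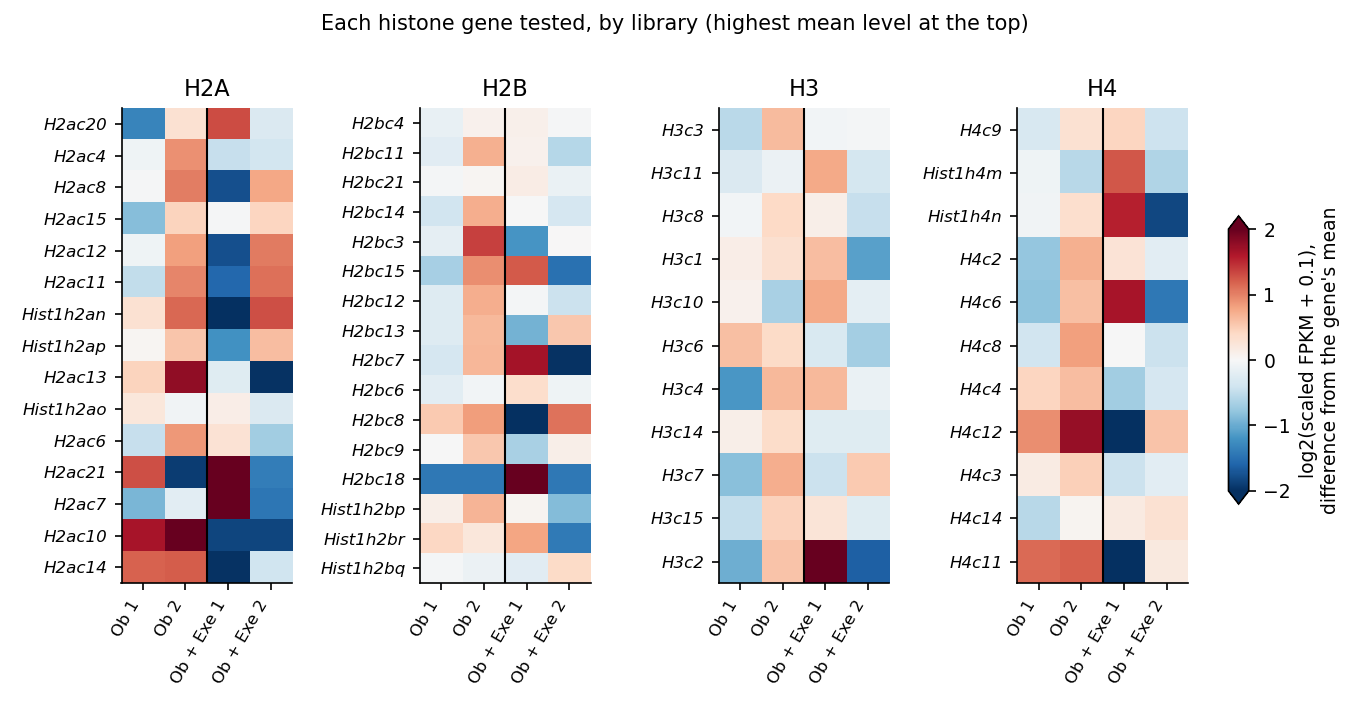
Each of the 53 members tested as a row, by class and ordered by mean level, with the 4 libraries as columns and the black line between the groups. Colour is log2(scaled FPKM + 0.1) minus the gene's mean over the libraries, red for higher and blue for lower, with colours held at the end of the scale beyond 2. Ob 2 is the highest library for 26 members, and in H2A a block of genes is low in Ob + Exe 1.

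The members differed widely in level. The median mean over the members tested was 2.35 scaled FPKM, 41 members reached 1 and 4 reached 10. The 3 most abundant, H4c9, H2bc4 and H2bc11, together held 39.6% of the members' FPKM. H4c9 (Hist1h4i), an H4 gene, was the most abundant member and gave 33.0 and 51.1 in Ob against 55.9 and 30.9 in Ob + Exe. Its log2 fold change was 0.02 ± 0.365 (SE), the groups overlapped, and only 2.08% of its windows were shared with other genes.

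Among the H2B genes the levels were led by H2bc4, H2bc11 and H2bc21. H2bc4 was measured at 29.8 and 35.1 in Ob against 35.4 and 32.5 in Ob + Exe. H2bc21 was measured at 8.19 and 8.60 in Ob against 9.30 and 7.64 in Ob + Exe. These are the members known for polyadenylated transcripts, and both were nearly level over all 4 libraries, with log2 fold changes of 0.07 ± 0.207 and 0.01 ± 0.251. H2bc11 (Hist1h2bj), whose annotated transcript ends 23 bases after the stem-loop, was less even, with 21.4 and 40.9 in Ob against 26.6 and 16.9 in Ob + Exe. Its log2 fold change was -0.48 ± 0.389 and the groups overlapped. Over the 16 H2B genes tested, 0 were called, 1 was separate and lower (Hist1h2bp), and the median log2 fold change was -0.37.

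H2bc18 (Hist2h2bb) was singled out after its values were seen. It was listed at 0 in both Ob libraries and in Ob + Exe 2 and at 5.27 scaled FPKM in Ob + Exe 1. All its windows were shared with Gm20628, an antisense gene at the same place on chromosome 3, or with Gm42743, a long noncoding RNA gene. Gm20628 was at 1.01 and 1.90 in Ob against 1.33 and 0.652 in Ob + Exe. Gm42743 was at 0.13 and 0.331 in Ob against 0 and 0.334 in Ob + Exe, and so was at 0 in the single library where H2bc18 was above 0. The level of H2bc18 thus rests on 1 library and on reads that match these neighbours as well.

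Of the H3 genes, H3c3 (Hist1h3c) was the most abundant. It stood at 9.58 and 21.6 in Ob and at 13.5 and 13.6 in Ob + Exe, so both Ob + Exe libraries fell between the Ob libraries. H3c11 was at 6.32 and 7.11 in Ob against 13.2 and 6.05 in Ob + Exe, with Ob + Exe 1 alone high. H3c8 was at 7.33 and 10.1 against 8.30 and 5.51. No H3 gene was called, and the median over the 11 tested was 0.02. H3c6 (Hist1h3e), named here after its values were seen, came nearest. It measured 2.92 and 2.49 in Ob against 1.52 and 1.14 in Ob + Exe, with both exercised libraries lower, a log2 fold change of -0.98 ± 0.388, an unadjusted p under 0.05 and an adjusted p of 0.96 (limma). H3c14 also separated the groups, with 1.57 and 1.87 against 1.20 and 1.20, and had a log2 fold change of -0.48 ± 0.406. All its windows were shared with other genes. Among them was Gm20634, which was at 1.08 in Ob + Exe 2 and at 0 in the other libraries.

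Among the H4 genes, 1 was called. H4c4 (Hist1h4d, chr13:23581598-23582735, plus strand) gave 2.99 and 3.40 scaled FPKM in Ob against 1.31 and 1.71 in Ob + Exe. Both Ob + Exe libraries were lower than both Ob libraries, from 231 and 256 read equivalents to 87 and 107. The log2 fold change was -1.04 ± 0.368, with an adjusted p of 0.96 by limma. None of its windows was shared with the annotated transcript of another gene. Shorter or near-identical shared stretches were not searched, so whether this value depends on how reads were divided was not tested. The call was lost when Ob 1, Ob 2 or Ob + Exe 1 was left out, and the log2 fold change stayed between -1.23 and -0.86 over the 4 fits that left out a library.

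H4c3, H4c11 and H4c12 also lay lower in both Ob + Exe libraries, and H4c14 was the single member that lay higher in both. H4c12 gave 1.68 and 3.03 in Ob against 0 and 1.29 in Ob + Exe (limma, adjusted p = 0.96). H4c11 gave 1.15 and 1.21 in Ob against 0 and 0.557 in Ob + Exe (adjusted p = 0.96). Neither was called. H4c14 (Hist2h4) lies in the smaller cluster on chromosome 3 and carries a poly-A signal at its annotated end. It gave 0.608 and 0.984 in Ob against 1.08 and 1.19 in Ob + Exe, and its log2 fold change was 0.49 ± 0.495. Hist1h4m and Hist1h4n, which share most of their windows, were both highest in Ob + Exe 1, with 8.15 and 7.91 beside 2.18 and 0.678 in Ob + Exe 2. Their sum was 5.67 and 5.63 in Ob against 16.1 and 2.85 in Ob + Exe, so the 2 exercised libraries were the highest and the lowest of the 4.

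The other 3 called genes were H2A genes on chromosome 13. H2ac10 (Hist1h2af, chr13:23533906-23534304, plus strand) was at 1.02 and 1.37 scaled FPKM in Ob, from 28 and 36 read equivalents, and was listed at 0 in both Ob + Exe libraries (limma, adjusted p = 0.943). H2ac13 (Hist1h2ai, chr13:21716422-21716814, plus strand) gave 1.19 and 3.14 in Ob against 0.696 and 0.139 in Ob + Exe. Its log2 fold change was -2.23 ± 0.801 (limma, adjusted p = 0.96), and the lowest library held 3 read equivalents. H2ac14 (Hist1h2aj, chr13:21721457-21721808, minus strand) gave 0.789 and 0.808 in Ob against 0 and 0.197 in Ob + Exe, from 19 and 19 read equivalents against 0 and 4. Its log2 fold change was -2.38 ± 0.791 (limma, adjusted p = 0.96). In all 3 genes both Ob + Exe libraries were lower than both Ob libraries. H2ac10 was called in each fit that left out a library. The call of H2ac13 was lost when Ob 1, Ob 2 or Ob + Exe 2 was left out, and that of H2ac14 without Ob 1 or Ob 2. Shared windows made up 58.4% of H2ac10, 86.1% of H2ac13 and 89.7% of H2ac14. H2ac14 is further overlapped on the opposite strand by Gm44357, annotated as a miRNA gene of 142 bases, which was at 2.97 and 4.20 in Ob against 1.88 and 0.682 in Ob + Exe, and the library kit does not mark strand.

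**Figure D4:**
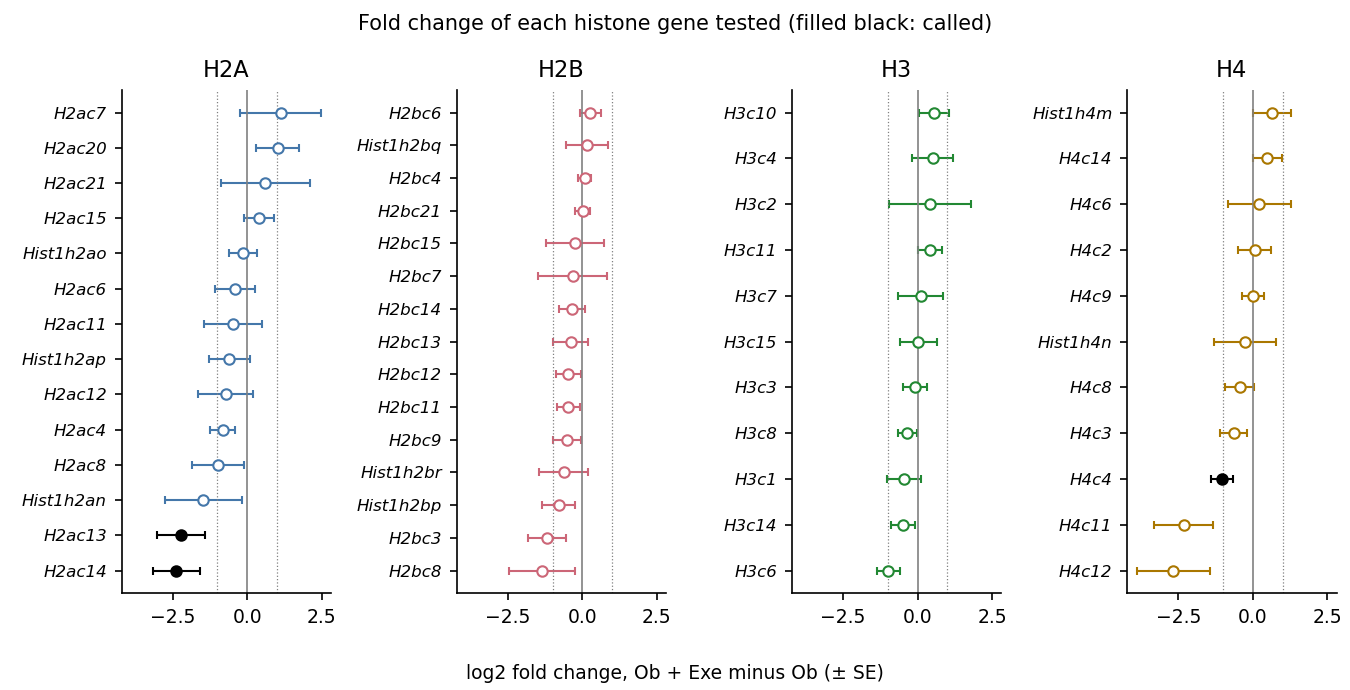
Log2 fold change of Ob + Exe against Ob with its SE (limma) for each member tested, by class. The grey line marks 0, dotted lines mark -1 and 1, and filled black points were called. H2ac10 and H2bc18, listed at 0 in a whole group, are not drawn. Points lie on both sides of 0 in each class, and the 3 filled points, H2ac13, H2ac14 and H4c4, lie at -2.23, -2.38 and -1.04.

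The 3 called H2A genes belong to a set of 12 H2A genes on chromosome 13 that are linked by shared windows. The sum over these 12 was 18.3 in Ob 1, 35.4 in Ob 2, 10.7 in Ob + Exe 1 and 25.1 in Ob + Exe 2. In read equivalents, which are not scaled for depth, it was 687 and 1372 in Ob against 443 and 745 in Ob + Exe. The groups overlapped in both, and the log2 ratio of the scaled FPKM was -0.59 beside a replicate SD of 0.77. All of these genes but H2ac10 also share windows with the pseudogene H2ac5-ps, which is not a member. It was at 0.616 and 1.85 scaled FPKM in Ob against 1.83 and 1.21 in Ob + Exe. The sum over the set is therefore not free of how reads were divided with H2ac5-ps. Within the set the libraries differed gene by gene. H2ac8 was at 3.06 and 6.41 in Ob against 0.848 and 5.41 in Ob + Exe. H2ac12, H2ac11, Hist1h2an and Hist1h2ap had the same profile, low in Ob + Exe 1 and high in Ob + Exe 2. H2ac12, for example, gave 0.683 and 5.30 in these 2 libraries. Other copies went the other way: H2ac7 was at 2.29 in Ob + Exe 1 and at 0.0478 in Ob + Exe 2, and at 0.113 and 0.245 in Ob. H2ac4 (Hist1h2ab) was lower in both Ob + Exe libraries, with 3.59 and 7.22 against 2.73 and 2.92, but was not called (log2 fold change -0.83 ± 0.414). Of the 12 genes, 7 were lowest in Ob + Exe 1 and 4 in Ob + Exe 2, and 6 were highest in Ob 2. The fitted log2 fold changes of genes in this set that were above 0 in both groups spanned from -2.38 to 1.13.

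**Figure D5:**
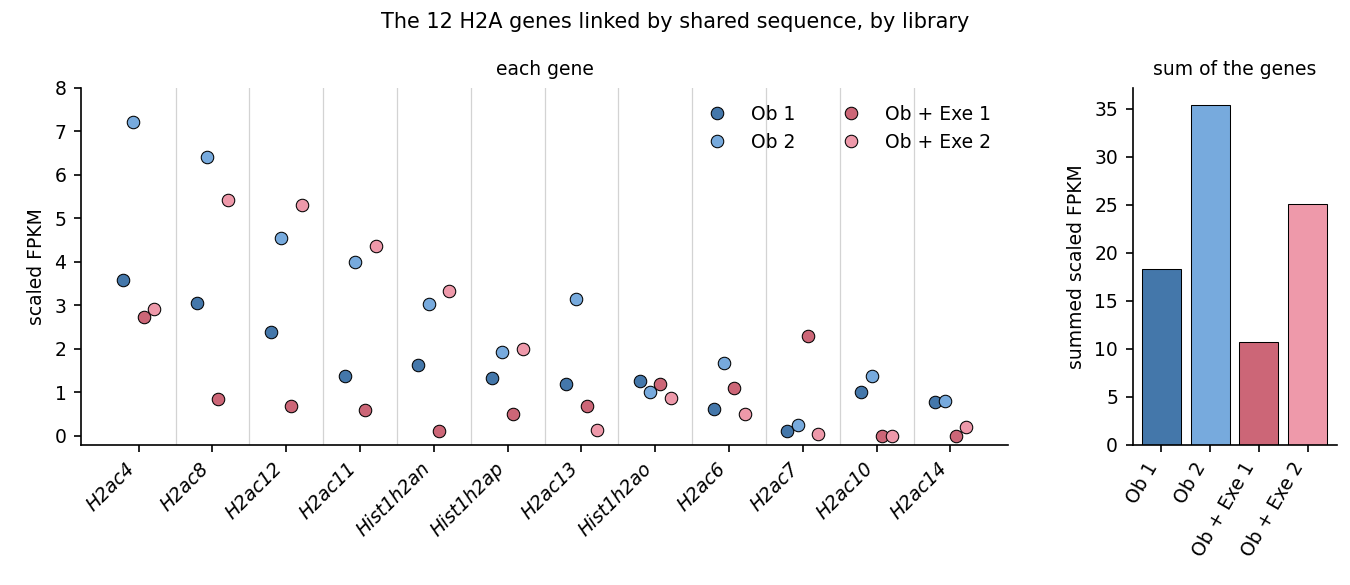
Left, scaled FPKM of each of the 12 H2A genes linked by shared 150-base windows, with 1 point per library. Right, their sum per library, with bars from 0. The sums are 18.3 and 35.4 in Ob against 10.7 and 25.1 in Ob + Exe, and H2ac10, H2ac13 and H2ac14 are the genes with both red points below both blue points that were called.

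Linked copies were also summed in the other classes. The 14 linked H2B genes summed to 77 and 128 in Ob against 95.8 and 76 in Ob + Exe. The 9 linked H3 genes of chromosome 13 summed to 35.3 and 53.5 against 52.6 and 33.1. The 8 linked H4 genes summed to 42.9 and 71.3 against 71.2 and 39.5. In each of these 3 sets the groups overlapped and the log2 ratio, -0.26, -0.05 and -0.04, was smaller than the replicate SD of 0.40, 0.45 and 0.56. In these sets H2bc6 also shares windows with Gm11398 and H1f4, and H4c2 with 4930558J22Rik, which are not members. The 3 linked H3 genes of chromosome 3 (H3c13, H3c14 and H3c15) summed to 1.96 and 2.70 in Ob against 1.94 and 1.68 in Ob + Exe. Here the groups did not overlap, though Ob 1 and Ob + Exe 1 were nearly equal, and the log2 ratio of -0.36 was larger than the replicate SD of 0.26. All 3 genes also share windows with Gm20628 and Gm20634, which are not members. Gm20634 was at 1.08 in Ob + Exe 2, from 176 read equivalents beside 121 for H3c14, and at 0 in the other libraries. This sum is therefore not free of how reads were divided with Gm20634, which the sources used here do not state.

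The 8 members that share no window with any gene are given separately. Shorter or near-identical shared stretches were not searched, so the division of reads could still affect these members. They were H2ac1 and Hist1h2al, at 0 in all libraries, and H2ac15, H2ac20, H2bc14, H2bc21, H4c4 and H4c14, which were tested. The sum over them was 21.5 and 36.9 in Ob against 36.2 and 25.6 in Ob + Exe, with Ob 2 and Ob + Exe 1 again high and a log2 ratio of 0.08. H2ac20 (Hist2h2ac), the most abundant H2A gene, gave 2.13 and 6.79 in Ob against 13.8 and 4.50 in Ob + Exe, and its log2 fold change was 1.02 ± 0.722 (limma, adjusted p = 0.96). H2bc14 gave 5.68 and 12.4 in Ob against 7.37 and 5.89 in Ob + Exe. Both have the stem-loop within the last 100 bases of the transcript. Of the 6 tested, H4c4 was called, and the median log2 fold change was 0.20.

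By annotated transcript end, the 22 members that end at the stem-loop were measured at a median of 3.61 scaled FPKM. The 16 with the stem-loop farther inside were at 1.66 and the 22 without a match at 1.3. The median annotated lengths were 483.5, 1079 and 396 bases. FPKM is scaled to this length, so the levels and spreads of the 3 sets differ in length as well as in transcript end. Among the 20 tested members that end at the stem-loop, 0 were called and the median log2 fold change was -0.33. Among the 15 with it farther inside, 1 was called (H4c4) and the median was -0.48. Among the 18 without a match in the annotated transcript, 3 were called (the H2A genes above) and the median was -0.33. All these calls were to lower values, as for 2.73% of all genes tested. The median replicate SD was 0.902, 0.526 and 0.826 in these 3 sets.

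Many H2A and H2B genes sit in pairs that are transcribed away from each other from a shared stretch. There were 13 pairs of an H2A and an H2B gene whose starts lay 176 to 306 bases apart, and in 12 of them both genes were tested. The H2B gene had the higher mean level in 8 of these 12. The fold changes had the same sign in 8, and both were below 0 in 7. H2bc13, paired with the called H2ac13, was at 3.79 and 7.20 in Ob against 2.32 and 6.64 in Ob + Exe. Its groups overlapped, as did those of H2bc14, the neighbour of the called H2ac14. In the pair of H2ac6 and H2bc4, H2ac6 was at 0.499 to 1.68 where H2bc4 was at 29.8 to 35.4.

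The promoters of H2ac10, H2ac13 and H4c4 are shown because these called genes were low together in Ob + Exe, and that of H2bc14 as an example of the octamer. RefSeq promoters (GRCm38.p6, 250 bases before to 50 after the start) were matched for 53 members. H2ac14, the other called gene, was not matched. Its start lies 236 bases from that of H2bc14 on the opposite strand, so the H2bc14 stretch shown also covers sequence upstream of H2ac14. The motifs searched were the following, each on both strands: the octamer ATTTGCAT, bound by the factor OCT1, the TATA box TATAAA and the CCAAT box CCAAT. The octamer was found in 6 of 17 H2A and 6 of 15 H2B promoters and in 0 of 10 H3 and 0 of 11 H4 promoters, beside 1.75% of all 27025 promoters. The CCAAT box was found in every H2A, H2B and H3 promoter matched and in 27.3% of the H4 promoters, beside 37.9% of all. TATAAA was found in 56.6% of the members' promoters and in 14.2% of all. The motifs are in capitals, on either strand, for H2ac10 at chr13:23533625-23533924, H2ac13 at chr13:21716162-21716461, H4c4 at chr13:23581318-23581617 and H2bc14 at chr13:21721794-21722093, all on the plus strand:

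H2ac10: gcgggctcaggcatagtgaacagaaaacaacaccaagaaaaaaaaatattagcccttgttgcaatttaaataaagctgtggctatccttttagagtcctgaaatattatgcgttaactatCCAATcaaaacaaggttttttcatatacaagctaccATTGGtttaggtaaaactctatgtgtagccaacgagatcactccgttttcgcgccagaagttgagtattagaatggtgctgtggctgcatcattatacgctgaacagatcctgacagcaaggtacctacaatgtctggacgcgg

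H2ac13: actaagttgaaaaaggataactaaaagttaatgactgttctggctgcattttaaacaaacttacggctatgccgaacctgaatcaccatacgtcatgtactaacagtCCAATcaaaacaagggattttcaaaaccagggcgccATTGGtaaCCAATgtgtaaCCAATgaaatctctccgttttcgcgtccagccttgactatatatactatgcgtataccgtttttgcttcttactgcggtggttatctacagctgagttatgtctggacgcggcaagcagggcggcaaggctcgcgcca

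H4c4: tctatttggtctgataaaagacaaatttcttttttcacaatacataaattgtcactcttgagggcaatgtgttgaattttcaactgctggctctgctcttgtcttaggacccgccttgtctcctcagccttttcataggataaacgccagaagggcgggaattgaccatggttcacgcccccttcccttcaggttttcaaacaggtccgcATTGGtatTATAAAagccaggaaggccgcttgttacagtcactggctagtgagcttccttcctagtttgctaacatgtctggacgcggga

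H2bc14: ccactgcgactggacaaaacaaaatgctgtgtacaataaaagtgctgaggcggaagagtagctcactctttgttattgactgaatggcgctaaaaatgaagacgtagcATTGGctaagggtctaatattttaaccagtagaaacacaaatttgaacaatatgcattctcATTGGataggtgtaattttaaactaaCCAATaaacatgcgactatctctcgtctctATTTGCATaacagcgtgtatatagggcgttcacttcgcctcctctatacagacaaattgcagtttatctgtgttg

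The 3 called genes shown held no octamer in these letters, and H4c4 alone among them held TATAAA. The octamer in the H2bc14 stretch also lies upstream of the called H2ac14, so the called genes are not shown to lack it. H2ac10 and H2ac13 held CCAAT boxes on both strands, as did H2bc14.

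The linker histone genes H1f1 to H1f5 encode the proteins that bind DNA between the spools. This list was added after the tables had been seen. None of the 5 was called, and their sum was 95.6 and 106 in Ob against 92.8 and 93.5 in Ob + Exe. H1f2 (Hist1h1c), also known for polyadenylated transcripts, was at 68.5 and 61.9 in Ob against 63.6 and 54.6 in Ob + Exe, higher than any core histone member in each library. H1f5 was at 17.4 and 28.6 against 20.2 and 22.5.

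Replication-independent histones, as listed here, are mostly made from ordinary polyadenylated mRNAs and not only in S phase. Of the 12 tested, 0 were called and the median log2 fold change was -0.15, and without Ob + Exe 1 the linker variant H1f10 was called. By fold change 8 of the 12 were lower and 4 higher. H3f3b, which encodes the variant H3.3, was at 333 and 333 scaled FPKM in Ob against 344 and 409 in Ob + Exe. H3f3a, the other gene of that variant, named after its values were seen, was at 400 and 320 against 184 and 330, with overlapping groups and a log2 fold change of -0.54 ± 0.334. H2az1 (H2afz), the variant found at promoters, was at 382 and 384 in Ob against 484 and 492 in Ob + Exe, higher in both exercised libraries, with a log2 fold change of 0.35 ± 0.213 (limma, adjusted p = 0.96). H2ax, the variant phosphorylated at DNA breaks, was at 197 and 187 against 150 and 178 (log2 fold change -0.23 ± 0.207). The median replicate SD of these 12 genes was 0.174, but several of them, such as H3f3b and H2az1, lay far above the members in level. The list was not matched to the members by level.

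The factors that make and process histone mRNA gave no call among 23 genes tested, with a median log2 fold change of -0.05. Slbp was at 124 and 118 in Ob against 83.4 and 156 in Ob + Exe. Npat was at 6.98 and 6.73 in Ob against 4.84 and 8.49 in Ob + Exe. In both genes Ob + Exe 1 was the lowest and Ob + Exe 2 the highest library, whereas the histone sum was high in Ob + Exe 1 and low in Ob + Exe 2. Other genes of the list had Ob 2 and Ob + Exe 1 as the high libraries, as the histone sum had. Examples named after their values were seen are Mif4gd, with 32 and 45.8 in Ob against 44.3 and 25.3 in Ob + Exe, and Srrt, with 59.4 and 95.4 against 117 and 57.8.

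Genes of DNA replication and S phase, when the core histones are made, gave 0 calls among 44 tested and a median of -0.05, and Gins2 was called without Ob + Exe 1. Pcna, the sliding clamp of the polymerases, was at 265 and 269 in Ob against 209 and 305 in Ob + Exe, lowest in Ob + Exe 1. The list was mixed in this respect. Other genes of it, such as Mcm10 and Pold1, named after their values were seen, had Ob 2 and Ob + Exe 1 as the high libraries, as the histone sum had. Genes of G2 and mitosis gave 0 calls among 20, a median of -0.13, and lay lower in both Ob + Exe libraries in 8 and higher in both in 1. The S phase list also held 8 genes lower in both and 1 higher, beside 18.7% and 14% of all genes. Mki67, a marker of cycling cells, was at 206 and 246 in Ob against 186 and 183 in Ob + Exe, with a log2 fold change of -0.29 ± 0.209. The sums over the S phase list were 2180 and 2332 in Ob against 1992 and 2317 in Ob + Exe, and the ratio of the highest to the lowest library was smaller than for the histone genes.

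Other RNAs without a poly-A tail were low in the libraries or listed at 0. Rn7sk had a mean of 2.21 scaled FPKM and Terc 0.833, beside a median of 2.35 over the members tested. Of 14 found in the tables, 6 were tested and 0 were called, although single ones were called without Ob 2 (Rmrp), Ob + Exe 1 (Rnu73b) or Ob + Exe 2 (Terc). The median replicate SD of the 6 was 1.07, wider than the 0.855 of members at 1 to 10 scaled FPKM, without matching for level. The sum over the list was 6.76 in Ob 1, 12.3 in Ob 2, 4.01 in Ob + Exe 1 and 7.11 in Ob + Exe 2. This sum, like that of the histone genes, was highest in Ob 2, but it was lowest in Ob + Exe 1, where the histone sum was high. How far poly-A selection differed between libraries was not tested.

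Markers of the blood lineages are given beside the histone sums. Fewer cells of a type and less RNA per cell cannot be told apart in such bulk samples. The B cell precursor genes were lower in Ob + Exe in 12 of 12 by fold change. Their sum was 188 and 210 in Ob against 141 and 114 in Ob + Exe, and 3 of the 12 were called lower, which were Igll1, Cd79a and Vpreb2, beside 2.73% of all genes. The neutrophil precursor genes summed to 1416 and 804 in Ob against 1590 and 1069 in Ob + Exe, with 0 of 7 called. The mature neutrophil genes summed to 40451 and 23017 against 30202 and 57396, with 0 of 8 called. By fold change 7 of 7 and 8 of 8 of these genes were higher in Ob + Exe, with medians of 0.32 and 0.33. The erythroid genes summed to 73948 and 73957 against 54861 and 82199, with 0 of 11 called. Of the 12 mesenchymal and fibroblast genes 1 was called, Col1a1, and was lower, as were 2.73% of all genes. By fold change 5 of these 12 were lower and 7 higher, with a median of 0.20. None of these sums had Ob 2 and Ob + Exe 1 as its 2 highest libraries, as the histone sum had. Their part in the histone levels was not tested.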

How the data were processed

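Bone marrow RNA was sequenced in 2 Ob and 2 Ob + Exe libraries after oligo-dT enrichment, as paired reads of 150 bases. The authors trimmed reads with fastp, removed rRNA reads, aligned to GRCm38 with HISAT2, filtered with SAMtools and ran StringTie on the GENCODE vM25 transcripts. It divides reads that fit several genes in a way the sources used here do not state. The deposited tables give, for each of 142604 transcripts, the coverage (a signal not scaled for depth) and the FPKM. The authors' own test was DESeq2 on read counts, which were not used here. No column of other samples was present in the tables (0 columns).

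FPKM were summed by gene symbol and gene ID. Median-of-ratios factors were computed from genes whose mean FPKM reached 1, log2(scaled FPKM + 0.1) was tested for genes whose mean FPKM reached 0.1 with limma 3.58.1 in R 4.3.3 (lmFit, eBayes with trend, 2 residual and 3.73 prior degrees of freedom), and a call needed a log2 fold change beyond 1 together with an unadjusted p below 0.05, as in the study. Fold changes are on the log2(scaled FPKM + 0.1) scale, which understates changes of low genes. Coverage times length divided by 150 gave read equivalents. Stem-loops, poly-A signals and shared 150-base windows were searched in the GENCODE vM21 transcripts, where all 66 member transcripts had the deposited length. Other software was Python 3.11.15, pandas 2.3.3 and, for figures, matplotlib 3.10.9. The limma step was tested on simulated data. The members, gene lists and tests were chosen with earlier results of these data known. Named with values were the 3 most abundant members of each class, every called member, H1f2, H2bc4, H2bc21, and Slbp, Npat, Pcna, Mki67, H2az1, H2ax and H3f3b. Other genes were named after their values were seen. No test was run on sums. Alternatives were other pseudocounts, filters and scalings, voom, a replicate block and leaving out each library.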

Additional observations from a re-analysis of the deposited data

How the results depend on the processing

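The members called lower numbered 4 as reported, 2 with a pseudocount of 1, 2 with a mean FPKM of at least 1, 1 with voom on read equivalents, and 3 to 6 without the filter, trend or scaling. Leaving out a library gave 2 to 10 members lower and 0 to 4 higher (2 without Ob 1 or Ob 2, 8 lower without Ob + Exe 1, 10 lower and 4 higher without Ob + Exe 2), in fits where the lone library of a group is assumed to vary like the others. The members' median log2 fold change lay between -0.69 and 0.02 when a library was left out, 0.02 being the value without Ob 2, and between -0.43 and -0.23 otherwise. The log2 ratio of the class sums ranged from -0.55 to 0.45 for H2A over those fits, and over members that share no 150-base window it was 0.76 for H2A and -0.59 for H4, each sum then resting on few genes. In the related lists the 0 calls became 1 for replication-independent histones and for S phase when Ob + Exe 1 was left out (0 to 1 over these fits). They became 1 for RNAs without a poly-A tail without scaling, without a trend, and on leaving out Ob 2, Ob + Exe 1 or Ob + Exe 2.

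The replicate block gave 7 members called lower and 1 higher. The replicate numbers share no stated animal, batch or day. Deviations of libraries with the same number correlated at -0.106 over the 18596 genes tested and at -0.235 over the 12409 whose mean FPKM reached 1, so the numbers are not taken as pairs. With the crossed pairing, added after the data were seen, 6 members were called lower and 1 higher. H4c4 was not called with the block.

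Among the named genes, 18 of 320 alternatives changed the sign of a fold change, in each case of a gene that was not called over all libraries. H2bc21 fell to -0.07 and H2bc4 to -0.02 without scaling, and H4c9 to -0.07 without scaling and -0.03 with quantile normalization. H3f3b was -0.11 with voom. On leaving out a library the ranges were -2.27 to 0.28 for H2ac8, -0.14 to 0.14 for H2bc21, -0.06 to 0.17 for H2bc4, -0.15 to 0.96 for H3c11, -0.68 to 0.49 for H3c3, -0.41 to 0.44 for H4c9, -0.30 to 1.56 for Hist1h4m, -1.95 to 1.41 for Hist1h4n, -0.50 to 0.30 for Npat, -0.36 to 0.19 for Pcna and -0.54 to 0.36 for Slbp. The cause was not tested.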
